A study of Mus musculus with 105 samples.

Results

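The RNA of 9 genes whose products write, copy, protect or remove cytosine methylation was followed over the first 4 days of differentiation of female mouse embryonic stem cells. The genes were taken by name: Dnmt1, Uhrf1 and Dppa3 on the maintenance side, Dnmt3a, Dnmt3b and Dnmt3l for de novo methylation, and Tet1, Tet2 and Tet3 for oxidation. All 9 were found in both bulk count tables, which hold 52108 genes each, and in the single-cell table of 34120 genes. All cells were TX1072, an F1 hybrid line from a C57BL6/J (B6) by Cast/EiJ (Cast) cross or clones derived from it. The line carries rtTA in Rosa26 and, before Xist of the B6 chromosome, a promoter that responds to doxycycline. TXdXicB6 and TXdXicCast lacked the X inactivation centre on the B6 and on the Cast X chromosome, respectively, and each was 1 clone. The B6 deletion spans Xist, so that TXdXicB6 is without this promoter as well. Cells were kept in serum with Lif and 2i (inhibitors of Mek and Gsk3), which holds them in naive pluripotency, and differentiated by withdrawal of 2i and Lif in serum on fibronectin, with samples on days 0, 1, 2, 3 and 4. Each line and day had 3 bulk RNA libraries from separate differentiations (15 TX1072 and 30 deletion-line libraries), and TX1072 also had single cells of 1 culture per day, the culture of bulk replicate 1.

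TX1072 libraries held 19827011 to 39628784 counts, TXdXicB6 libraries 20246434 to 49962859 and TXdXicCast libraries 16906263 to 57920260. TX1072 and the deletion lines were prepared with different kits and sequencers and were never fitted together, so that their levels stand side by side without a test. By the labels, the 3 TXdXicCast libraries of day 0 came from partly degraded RNA that was fragmented more mildly, so that a change from that day 0 cannot be told apart from RNA quality. The values are RNA levels of the enzymes, and the methylation of DNA itself was not analysed here. In the bulk libraries, fewer cells with a transcript and less RNA per cell cannot be told apart.

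As background, DNA methylation in mammals sits mostly on cytosines followed by guanine (CpG). Dnmt1 copies it to the new strand after replication, guided by Uhrf1, which recognises sites with methylation on 1 strand, and Dppa3 (also called Stella) can bind Uhrf1 and keep it from chromatin. Dnmt3a and Dnmt3b place new methyl groups, with Dnmt3l as a catalytically inactive cofactor, and the Tet dioxygenases oxidise methylcytosine as a step towards its removal. Naive embryonic stem cells in 2i are known for sparse methylation, which is built up as they leave that state.

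Reference promoter windows of 300 bases (250 before to 50 after an annotated start; RefSeq, GRCm38.p6) were at hand for 8 of the 9 genes, 15 windows in all. The pair of maintenance genes is shown first, because among these 15 windows only 1 of Dnmt1 and 1 of Uhrf1 held the letters TTTNGCGC, a form of the site of E2F, the factor family that drives genes of DNA replication. The letters, searched on both strands, are in capitals.
Dnmt1 chr9:20952574-20952873, minus strand: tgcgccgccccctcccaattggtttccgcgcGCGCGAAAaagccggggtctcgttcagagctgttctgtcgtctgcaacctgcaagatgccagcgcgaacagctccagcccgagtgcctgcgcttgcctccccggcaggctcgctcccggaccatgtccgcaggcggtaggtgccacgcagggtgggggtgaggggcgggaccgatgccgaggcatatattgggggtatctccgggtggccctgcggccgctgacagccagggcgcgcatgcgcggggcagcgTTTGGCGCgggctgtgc
Uhrf1 chr17:56304063-56304362, plus strand: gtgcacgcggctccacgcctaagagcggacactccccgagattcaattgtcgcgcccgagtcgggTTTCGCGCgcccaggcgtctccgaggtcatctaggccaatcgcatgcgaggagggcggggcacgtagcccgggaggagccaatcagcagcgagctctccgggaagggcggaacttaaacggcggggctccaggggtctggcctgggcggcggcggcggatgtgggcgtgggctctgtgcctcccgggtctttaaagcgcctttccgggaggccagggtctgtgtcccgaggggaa
These letters were in 1.38% of all 32851 windows of this length. The windows of Dnmt3l and Tet2 are shown because these genes had the largest rise and the largest fall among the members in TX1072, with every CpG in capitals.
Dnmt3l chr10:78042037-78042336, plus strand: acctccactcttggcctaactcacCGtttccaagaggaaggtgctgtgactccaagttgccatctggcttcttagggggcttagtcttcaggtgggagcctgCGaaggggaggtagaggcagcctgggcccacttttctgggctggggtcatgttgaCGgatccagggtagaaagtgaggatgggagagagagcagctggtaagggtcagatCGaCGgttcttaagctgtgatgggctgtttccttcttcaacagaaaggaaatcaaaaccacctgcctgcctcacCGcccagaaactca
Tet2 chr3:133544341-133544640, minus strand: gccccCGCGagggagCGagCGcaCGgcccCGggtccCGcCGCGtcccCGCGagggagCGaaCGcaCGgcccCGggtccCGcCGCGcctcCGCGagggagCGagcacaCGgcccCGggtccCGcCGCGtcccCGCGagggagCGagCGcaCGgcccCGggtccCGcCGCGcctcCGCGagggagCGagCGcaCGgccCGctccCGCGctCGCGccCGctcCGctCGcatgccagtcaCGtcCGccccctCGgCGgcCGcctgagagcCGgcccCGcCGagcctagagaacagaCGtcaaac
The Tet2 window held 57 CpGs, more than 99.8% of all windows, and the Dnmt3l window held 6, against a median of 7 over all windows and quartiles of 3 and 20. The remaining starts of Dnmt3l held 4 and 3, those of Dnmt3a 46, 47 and 18, that of Dnmt3b 30, that of Tet1 17 and that of Tet3 22. The letters AAGGTCA, read by Esrrb, was in none of the 15 windows, against 4.72% of all windows, and the letters TTCNNNGAA, read by STAT factors downstream of Lif, were in 1, another start of Dnmt3l, against 8.30% of all windows. A match of letters is a description and not a bound site.

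The label of the cells was checked first. In TX1072, the summed level of 7 embryonic stem cell genes (Pou5f1, Sox2, Nanog, Esrrb, Zfp42, Klf4 and Prdm14) was 4002, 4050.5 and 4612 CPM (counts scaled to 1000000 autosomal counts) on day 0 and 956, 1020.1 and 1064 CPM on day 4, with none at 0 in any library and Pou5f1 the most abundant in 14 of the 15. From day 0 to day 4, 7 of 7 fell. The formative genes Fgf5, Otx2 and Pou3f1 summed to 36.6, 47.1 and 43.5 CPM on day 0 and 335, 249 and 267 CPM on day 2, and 3 of 3 rose from day 0 to day 2. The 9 methylation genes were thus followed in cells that held stem cell markers at the start and formative markers from day 1 on.

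Compared per length of exon (CPM per kilobase, RPKM; mean ± SD of 3 TX1072 libraries), the order of the 9 genes turned over within a day. On day 0, Uhrf1 was the highest at 245 ± 24.5 RPKM, followed by Dnmt1 at 67.0 ± 11.1 and Dppa3 at 59.0 ± 10.1, which overlapped each other, then Dnmt3b at 39.8 ± 7.32, and Tet2 at 28.3 ± 1.93 and Tet1 at 23.9 ± 4.48, which overlapped. Dnmt3l at 13.2 ± 2.92 RPKM, Dnmt3a at 3.68 ± 0.245 and Tet3 at 0.974 ± 0.267 closed the list. On day 1, Dnmt3l led at 551 ± 50.0 RPKM, above Uhrf1 at 226 ± 15.3 and Dnmt3b at 141 ± 3.50, and Dppa3 had moved to the place before the last at 3.99 ± 1.12. From day 2 on, Dnmt3l and Dnmt3b held the first 2 places, at 423 ± 75.6 and 367 ± 10.5 RPKM on day 2, which overlapped, and at 116 ± 15.9 (Dnmt3b) and 87.5 ± 32.3 (Dnmt3l) on day 4, which overlapped too, with Uhrf1 at 80.7 ± 8.27 within the range of Dnmt3l. Tet3 was the lowest of the 9 on each of the 5 days, and on days 3 and 4 Tet2 overlapped it, at 1.04 ± 0.210 against 1.02 ± 0.0885 RPKM on day 4. Exon lengths are unions over all annotated transcripts, so that a gene with long alternative exons is placed too low where shorter transcripts prevail.

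In TX1072, a gene was called when the adjusted p of edgeR's quasi-likelihood test was at most 0.05 over all 18871 genes tested. From day 0 to day 1, 3 of the 9 genes rose (Dnmt3a, Dnmt3b, Dnmt3l) and 2 fell (Dppa3, Tet2), where 25.0% of all genes were called higher and 21.9% lower. From day 1 to day 2, 4 rose (Dnmt3a, Dnmt3b, Dppa3, Tet3) and 2 fell (Uhrf1, Tet2), against 18.7% and 20.9%. From day 2 to day 3, 1 rose (Dppa3) and 5 fell (Uhrf1, Dnmt3a, Dnmt3l, Tet1, Tet2), against 13.8% and 12.9%. From day 3 to day 4, none rose and 4 fell (Dppa3, Dnmt3a, Dnmt3b, Dnmt3l), against 15.5% and 12.2%. Over the whole course, 3 genes were higher on day 4 than on day 0 (Dnmt3a, Dnmt3b, Dnmt3l) and 4 were lower (Uhrf1, Dppa3, Tet1, Tet2), against 29.8% and 30.0% of all genes. The transcriptome as a whole moved widely: in either direction, 47.0%, 39.6%, 26.7% and 27.7% of all genes were called at the 4 steps, 56.1% from day 0 to day 2 and 59.8% from day 0 to day 4.

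**Figure D1:**
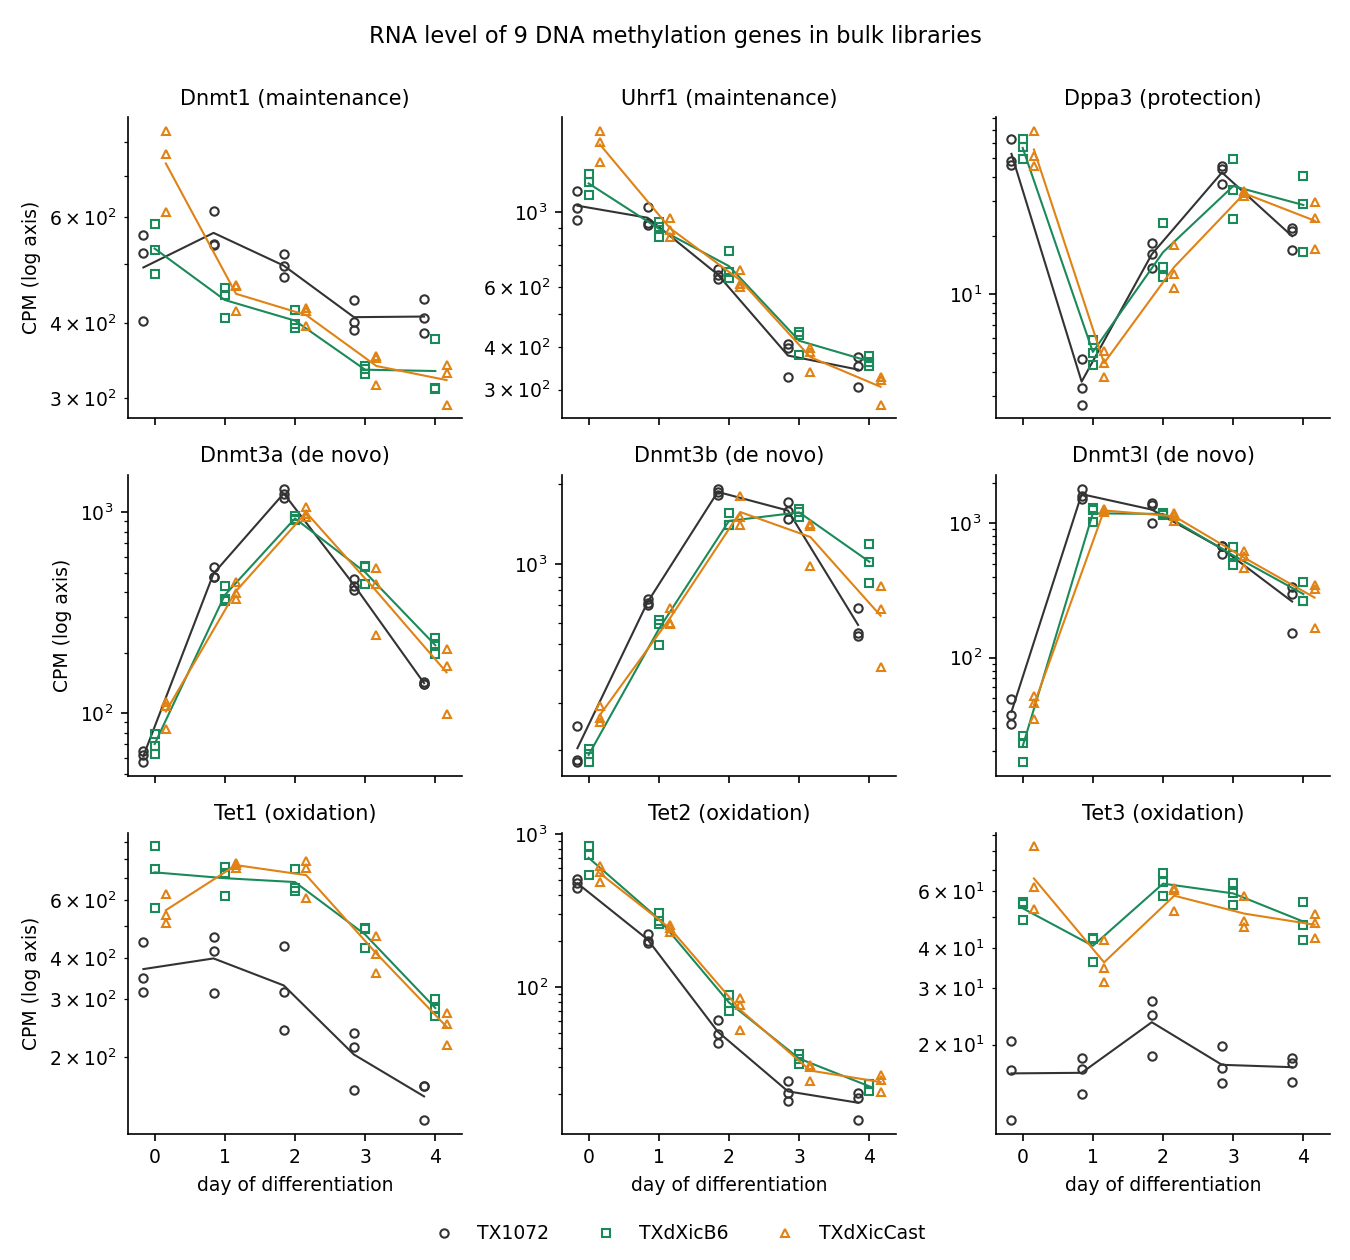
RNA level of the 9 genes (CPM, log axis) by day of differentiation in the 45 bulk libraries; each point is 1 library, lines join the means of 3 libraries, black circles are TX1072, green squares TXdXicB6 and orange triangles TXdXicCast. The mean of Dnmt3a and Dnmt3b peaks on day 2 or 3 and that of Dnmt3l on day 1, that of Tet2 falls from day to day, and Dppa3 has its lowest value on day 1 in each line. TX1072 was made with another kit, so that its height against the other lines carries no comparison.

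Of the maintenance pair, Uhrf1 fell in TX1072, while no step of Dnmt1 was called. Dnmt1 (ENSMUSG00000004099, chr9:20907209-20959888, minus strand, GRCm38), the maintenance methyltransferase, was at 522, 559 and 402 CPM in the 3 TX1072 libraries of day 0, 476, 520.4 and 496 CPM on day 2 and 407, 438 and 384 CPM on day 4. The groups overlapped, replicate 3 of day 0 being the low one, and day 4 against day 0 gave a log2 fold change of -0.27 ± 0.12 (SE), adjusted p = 0.052. This change was called with the replicate as block (adjusted p = 0.022) and without replicate 3 of day 0 (log2 fold change of -0.38, adjusted p = 0.0051), and so was the step from day 2 to day 3 with the block (-0.29, adjusted p = 0.030). Uhrf1 (ENSMUSG00000001228, chr17:56303321-56323486, plus strand), its guide to newly replicated DNA, was at 1029.5, 1155 and 947 CPM on day 0, 918, 1037 and 930.0 CPM on day 1, 634, 652 and 678 CPM on day 2. It was at 398, 409.9 and 326 CPM on day 3 and 351, 375 and 305 CPM on day 4. Days 0 and 1 overlapped, every library of day 2 was below both, and every library of days 3 and 4 was below day 2. It fell from day 1 to day 2 (log2 fold change of -0.55 ± 0.11 (SE), adjusted p = 0.0008). It fell again from day 2 to day 3 (log2 fold change of -0.79 ± 0.11 (SE), adjusted p = 5.8e-05), and had a log2 fold change of -1.60 ± 0.12 (SE), adjusted p = 1.3e-09 from day 0 to day 4.

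Both genes are used in replicating cells, and 12 genes of S phase and proliferation were read beside them. Their summed level was 6963, 7299 and 5698 CPM on day 0 and 4843, 4839 and 4668 CPM on day 4, with Top2a the most abundant and none at 0. From day 0 to day 4, 1 of the 12 rose, 8 fell and 3 were not called, with a median log2 fold change of -0.52, against -0.05 over all genes tested, and from day 0 to day 2 there were 2 rises and 4 falls with a median of -0.10. Uhrf1 fell by 0.67 on the log2 scale from day 0 to day 2 and by 1.60 from day 0 to day 4. A median does not show how far single genes of the list fell. The part of the cell cycle in the fall of Uhrf1 was not tested.

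Dppa3 had the most uneven course. This gene (ENSMUSG00000046323, chr6:122626410-122630272, plus strand), a protein of naive cells, oocytes and early embryos, was at 62.9, 46.4 and 48.5 CPM on day 0, 4.67, 2.71 and 3.30 CPM on day 1, 16.2, 18.3 and 13.7 CPM on day 2. It was at 45.8, 44.0 and 36.9 CPM on day 3 and 16.8, 21.8 and 21.0 CPM on day 4. Day 1 was below every library of the other days, day 3 came back to just under day 0 without reaching it, and days 2 and 4 lay between. It fell from day 0 to day 1 (log2 fold change of -3.89 ± 0.20 (SE), adjusted p = 3.8e-11). It rose at both following steps (2.18 ± 0.19 and 1.39 ± 0.17 on the log2 scale) and fell again from day 3 to day 4 (log2 fold change of -1.09 ± 0.17 (SE), adjusted p = 0.00016). A transcribed processed pseudogene, Dppa3-ps on the X chromosome (chrX:37625647-37626097, minus strand), took the same course, at 20.7, 18.5 and 16.6 CPM on day 0, 1.22, 1.15 and 1.20 CPM on day 1 and 11.5, 10.5 and 13.5 CPM on day 3. Only uniquely aligned reads were counted, so that reads that fit both copies equally well enter neither count, and the level of Dppa3 is uncertain to that extent.

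The 3 de novo genes rose together on day 1. Dnmt3a and Dnmt3l had their first called fall from day 2 to day 3, and Dnmt3b from day 3 to day 4. Dnmt3l (ENSMUSG00000000730, chr10:78041947-78063622, plus strand), the inactive cofactor, was at 32.0, 49.0 and 37.2 CPM on day 0, 1523, 1813 and 1607 CPM on day 1, 1007, 1361 and 1426 CPM on day 2. It was at 587, 674 and 682 CPM on day 3 and 152, 298 and 334 CPM on day 4. Each library of day 1 was above each of the other days, and day 4 was still above day 0. The rise from day 0 to day 1 had a log2 fold change of 5.39 ± 0.26 (SE), adjusted p = 2.5e-11, the largest of the 9 genes at that step. The step from day 1 to day 2 was not called (log2 fold change of -0.38 ± 0.22 (SE), adjusted p = 0.18; 0.038 with the replicate as block and 0.026 without the filter on low counts), and it fell at the following steps by 0.97 and 1.31 on the log2 scale.

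Dnmt3a (ENSMUSG00000020661, chr12:3806007-3914443, plus strand), a de novo methyltransferase, was at 65.0, 56.9 and 61.7 CPM on day 0, 533, 477 and 474 CPM on day 1, 1227, 1178 and 1309 CPM on day 2. It was at 411, 463 and 429 CPM on day 3 and 142, 140.3 and 140.0 CPM on day 4. All libraries of day 2 were above all others, and days 1 and 3 lay below it and overlapped neither day 0 nor day 4. It rose from day 0 to day 1 (log2 fold change of 3.02 ± 0.10 (SE), adjusted p = 3.5e-13). It rose again from day 1 to day 2 (log2 fold change of 1.32 ± 0.10 (SE), adjusted p = 6.3e-09), and fell by 1.51 and 1.62 on the log2 scale at the next steps. Dnmt3b (ENSMUSG00000027478, chr2:153649450-153687730, plus strand), the other active enzyme, was at 180.4, 246 and 183 CPM on day 0, 716, 740.4 and 705 CPM on day 1, 1872, 1929 and 1822 CPM on day 2. It was at 1587, 1721 and 1476 CPM on day 3 and 685, 549.9 and 539 CPM on day 4. It peaked on day 2 like Dnmt3a, but the libraries of day 3 lay just below those of day 2, where Dnmt3a had already fallen. From day 2 to day 3 the change of Dnmt3b was not called (log2 fold change of -0.23 ± 0.13 (SE), adjusted p = 0.19). It fell from day 3 to day 4 (log2 fold change of -1.43 ± 0.13 (SE), adjusted p = 4.8e-07).

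Dnmt3l shares 67 exonic bases with Aire, a gene on the opposite strand known from the thymus, and the counts of Aire followed it, from 3.50, 4.97 and 6.83 CPM on day 0 to 124, 144 and 113 CPM on day 1. Whether reads were counted by strand is not given in the sources used here, so that the 2 genes cannot be told apart in these bases. The same holds for 133 exonic bases of Dnmt3a shared with Dnmt3aos and 43 of Tet2 shared with Gm42567, both antisense genes, which had at most 5 and 9 counts in any of the 45 libraries. Dnmt3c, a rodent copy of Dnmt3b, was under 3 CPM in every TX1072 library, and reads that fit both genes equally well enter neither count.

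Of the oxidation genes, Tet2 fell by the most, Tet1 later and by less, and Tet3 was low throughout. Tet2 (ENSMUSG00000040943, chr3:133463679-133545139, minus strand) was at 443, 481 and 508 CPM on day 0, 199, 195 and 222 CPM on day 1, 49.1, 43.4 and 61.0 CPM on day 2. It was at 18.0, 20.4 and 24.2 CPM on day 3 and 13.5, 20.2 and 18.9 CPM on day 4. Each day from 0 to 3 lay below the one before without overlap, and days 3 and 4 overlapped. It fell at the first 3 steps by 1.22, 2.00 and 1.29 on the log2 scale, and from day 0 to day 4 it had a log2 fold change of -4.76 ± 0.17 (SE), adjusted p = 1.5e-13, the largest fall of the 9 genes. Tet1 (ENSMUSG00000047146, chr10:62804570-62908996, minus strand) was at 314, 348 and 447 CPM on day 0, 419, 313 and 464 CPM on day 1, 314, 241 and 434 CPM on day 2. It was at 159, 215 and 237 CPM on day 3 and 129, 163 and 164 CPM on day 4. Days 0 to 2 overlapped, replicate 3 being the high one on each of them, and days 3 and 4 lay below day 2. It fell from day 2 to day 3 (log2 fold change of -0.70 ± 0.20 (SE), adjusted p = 0.017), a call that was lost without replicate 3 of day 2 (adjusted p = 0.11) or replicate 1 of day 3 (0.093). It fell from day 0 to day 4 (log2 fold change of -1.28 ± 0.21 (SE), adjusted p = 3.1e-05). The step from day 3 to day 4 was called only with the block (-0.41, adjusted p = 0.040) or without the filter on low counts (-0.39, adjusted p = 0.023). Tet3 (ENSMUSG00000034832, chr6:83362373-83459084, minus strand) was between 11.6 and 27.4 CPM in all 15 libraries, at 14.1, 18.1 and 16.8 CPM on day 1, 24.7, 18.4 and 27.4 CPM on day 2 and 15.2, 19.8 and 16.9 CPM on day 3. Day 2 lay just above day 1 without overlap, and overlapped days 0 and 3. It rose from day 1 to day 2 (log2 fold change of 0.52 ± 0.19 (SE), adjusted p = 0.032), and 4 of the 6 leave-one-out fits of that step lost the call, with adjusted p between 0.056 and 0.12. Its fall from day 2 to day 3 was called only with the block (-0.45, adjusted p = 0.043), without the filter on low counts or without replicate 2 of day 2.

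The deletion lines differ in which X chromosome can be inactivated. Each is 1 clone, so that the deleted allele cannot be told apart from the clone. In TXdXicB6, 8 of the 9 genes were called from day 0 to day 1, where 45.7% of 19885 genes were, 6 from day 1 to day 2 (32.6% of all genes), 7 from day 2 to day 3 (25.6%) and 5 from day 3 to day 4 (15.9%). In TXdXicCast, the counts were 9 (58.8% of all genes; the day 0 libraries were the degraded ones), 6 (35.7%), 7 (27.7%) and 5 (18.7%). The call of Dnmt1 from day 2 to day 3, made in both lines, was lost under most alternatives. Dnmt3l was at 23.2, 25.9 and 16.6 CPM on day 0 of TXdXicB6 and 1289, 1022 and 1246 CPM on day 1, and at 1208, 1252 and 1279 CPM on day 1 of TXdXicCast. Day 1 was far above day 0 in both lines (log2 fold change of 5.76 ± 0.24 (SE), adjusted p = 1e-16 in TXdXicB6). Dnmt3a peaked on day 2 in both, at 910.5, 923 and 956 CPM in TXdXicB6 and 981, 944 and 1060.0 CPM in TXdXicCast. Tet2 fell from 542, 726 and 834 CPM on day 0 of TXdXicB6 to 23.3, 20.9 and 23.3 CPM on day 4 (log2 fold change of -4.96 ± 0.18 (SE), adjusted p = 8e-19).

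Some courses were called in the deletion lines and not in TX1072. Dnmt1, at 584, 529 and 482 CPM on day 0 of TXdXicB6 and 311, 376 and 311 CPM on day 4, fell over the course (log2 fold change of -0.68 ± 0.10 (SE), adjusted p = 1.6e-06), without overlap of the groups. Uhrf1 fell already from day 0 to day 1 in TXdXicB6 (log2 fold change of -0.44 ± 0.10 (SE), adjusted p = 0.00056). Tet1, at 429, 494 and 489 CPM on day 3 of TXdXicB6 and 279, 299.9 and 266 CPM on day 4, fell at that last step (log2 fold change of -0.74 ± 0.13 (SE), adjusted p = 0.00025), and it did so in TXdXicCast (log2 fold change of -0.74 ± 0.13 (SE), adjusted p = 0.00021). Tet3 rose from day 1 to day 2 in both, as in TX1072 (0.64 ± 0.14 and 0.69 ± 0.14 on the log2 scale). Dppa3 was the reverse case: its second fall, from day 3 to day 4, was called in TX1072 only, with a log2 fold change of -0.32 ± 0.27 (SE), adjusted p = 0.5 in TXdXicB6. In TXdXicCast it gave a log2 fold change of -0.47 ± 0.27 (SE), adjusted p = 0.25, and was called there without the filter on low counts (adjusted p = 0.017). The differences between TX1072 and the deletion lines were not tested, since line and library kit cannot be told apart.

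Between the 2 deletion lines, none of the 9 genes differed on days 1, 2 and 3 by edgeR, with 0 of 9 at an unadjusted p under 0.05 and 0 by DESeq2 on each of these days, where 0.392%, 0.377% and 1.29% of all genes were called. On day 4, Dnmt3b was at 1022, 1197 and 850.4 CPM in TXdXicB6 and 680.1, 831 and 412 CPM in TXdXicCast. All 3 libraries of TXdXicCast were below all 3 of TXdXicB6, replicate 3 by the most, and the difference was called (log2 fold change of -0.68 ± 0.17 (SE), adjusted p = 0.014), the 1 member at that day, against 5.98% of all genes. It was lost without replicate 3 of TXdXicCast (log2 fold change of -0.45, adjusted p = 0.15) or without replicate 2 of TXdXicB6 (-0.57, adjusted p = 0.088). Uhrf1 and Dnmt3a were lower too (log2 fold changes of -0.25 and -0.45, unadjusted p of 0.018 and 0.036 by edgeR), but neither was called. Without the filter on low counts, Dnmt3a was called (-0.46, adjusted p = 0.0078). Several marker lists moved with the difference in Dnmt3b. The 7 genes of embryonic stem cells, with Pou5f1 the most abundant, summed to 1271, 1133 and 1324 CPM in TXdXicB6 and 1037, 1038 and 835 CPM in TXdXicCast, and the 5 of primitive endoderm, with Dab2 the most abundant, to 32.1, 36.4 and 30.5 and 46.8, 42.5 and 65.9 CPM. The 12 of S phase and proliferation summed to 4510.2, 4546 and 4675 and 4112, 4293 and 3797 CPM. These groups did not overlap, and replicate 3 of TXdXicCast stood furthest from TXdXicB6 in all 3 lists. Of these genes 1 of 7, 0 of 5 and 2 of 12 were called lower and 0, 2 and 0 higher, with none at 0, and their part in the difference was not tested. The 3 formative genes summed to 412.5, 382.4 and 325.8 CPM in TXdXicB6 and 326.2, 293.7 and 251.2 CPM in TXdXicCast, with a narrow overlap. Those of trophoblast summed to 107.5, 132.6 and 104.8 and to 101.2, 93.9 and 128.1 CPM, with overlap. The part of these lists was not tested either. Replicate 3 of TXdXicCast was also the lowest of its group for Dnmt3a on day 3 (441, 527 and 246 CPM) and day 4 (171, 209 and 98.7 CPM). On day 0, 5 genes were called, against 19.8% of all genes. In TXdXicCast, 4 were higher (Dnmt1, Uhrf1, Dnmt3b, Dnmt3l; 11.2% of all genes) and 1 was lower (Tet1; 8.55%). Of these, Dnmt3b (adjusted p = 0.067) and Tet1 (0.29) were not called with the replicate as block. Between lines, that fit compares only the levels fitted for replicate 1 of each line. Both calls were also lost without replicate 3 of TXdXicCast on day 0 (adjusted p = 0.15 and 0.14). That day cannot be told apart from RNA quality. The test of the line against the change from day 1 to day 4 called none of the 9 by edgeR, 1 (Dnmt3b) at an unadjusted p under 0.05 and 1 (Dnmt3b) by DESeq2, against 0.83% of all genes by edgeR. For Dnmt3b it gave log2 fold change of -0.81 ± 0.24 (SE), adjusted p = 0.11, and without replicate 2 of TXdXicCast on day 4 it was called (-1.05, adjusted p = 0.019).

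**Figure D2:**
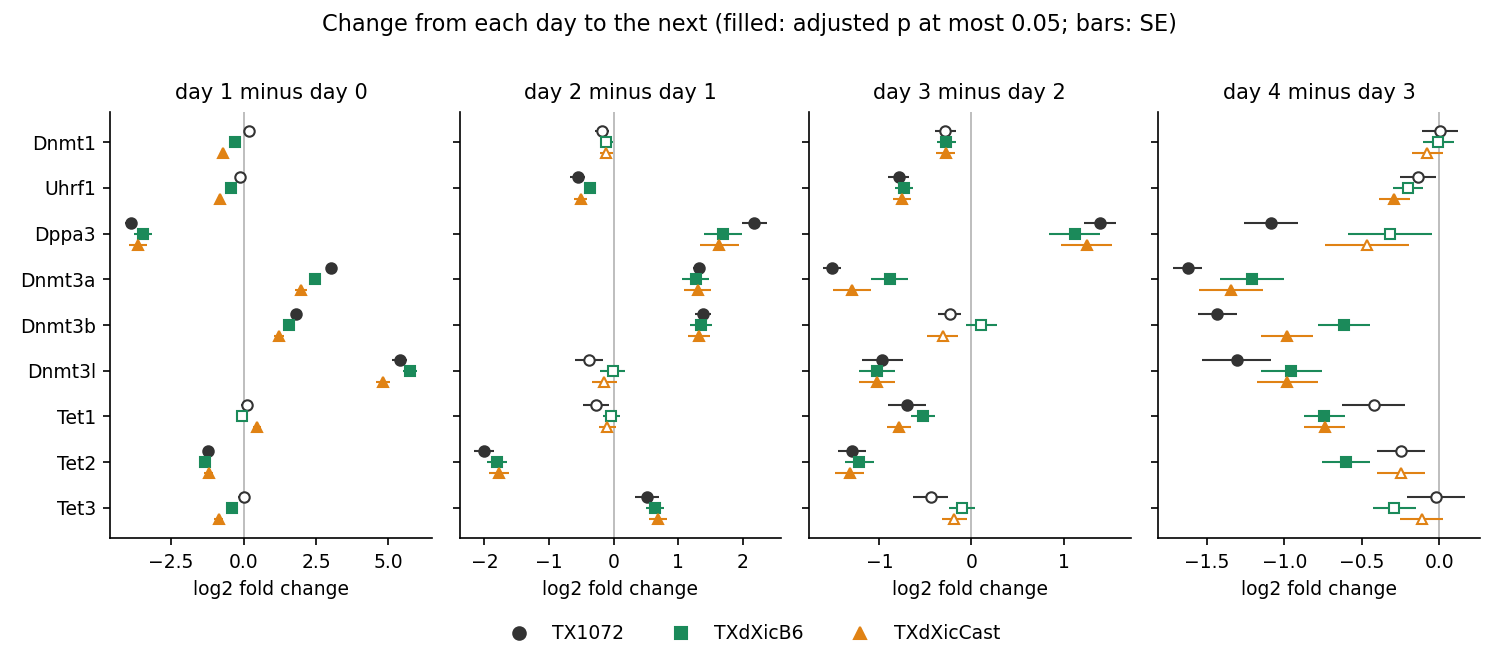
Log2 fold change of the 9 genes from each day to the next, 1 panel per step with its own scale on the x axis; points are the estimates of edgeR, bars their SE, filled points have an adjusted p of at most 0.05, and colours and shapes stand for the 3 lines. Dnmt3l moves furthest at the first step, Dnmt3a and Dnmt3b rise at both first steps, and Tet2 falls at the first 3 in each line. The TXdXicCast points of the first panel rest on the degraded day 0 libraries.

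Partners of the enzymes were read from lists chosen by function, in TX1072. Of 7 maintenance partners, 2 rose and 2 fell from day 0 to day 2, and 1 rose and 5 fell from day 0 to day 4 (median log2 fold change of -0.43, against -0.05 over all genes). The 1 that rose was Cdca7l, a relative of Cdca7, the activator of the remodeller Hells (1.51 ± 0.12, adjusted p = 5.9e-09 from day 0 to day 4), and Pcna, the replication clamp, fell by the most (-0.54 ± 0.12, adjusted p = 0.0006). Of 7 readers of methylated DNA, 2 rose and 4 fell by day 2, and 3 rose and 2 fell by day 4. Zbtb38, a methyl-CpG-binding zinc finger protein, fell by day 2 (-1.52 ± 0.12, adjusted p = 5e-09), and Zbtb33 (Kaiso) rose by day 4 (1.46 ± 0.31, adjusted p = 0.00049).

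Of 14 genes for excision repair, which can complete removal after oxidation, 5 rose and 4 fell by day 2, and 4 rose and 6 fell by day 4. Gadd45g, a stress-response gene linked to demethylation, was at 0.389, 1.04 and 1.14 CPM on day 0, 20.6, 21.8 and 13.4 CPM on day 1, 64.4, 91.8 and 74.1 CPM on day 2 and 9.68, 7.50 and 8.63 CPM on day 4, a rise and partial return as for Dnmt3a. It rose from day 0 to day 2 by 6.57 ± 0.31, adjusted p = 5.1e-12, while its relative Gadd45b fell (-2.44 ± 0.16, adjusted p = 3.1e-10). Ung, a uracil glycosylase, fell by day 4 (-1.55 ± 0.10, adjusted p = 1.5e-10). Of 9 chromatin partners of the methyltransferases, 3 rose and 2 fell by day 2, and 1 rose and 3 fell by day 4. Zfp57, which holds methylation at imprinted regions, was at 334, 388 and 322 CPM on day 0, 435, 458 and 437 CPM on day 1 and 43.9, 52.3 and 44.5 CPM on day 4 and fell by day 4 (-2.89 ± 0.13, adjusted p = 2.4e-12).

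Of 6 Tet partners and cofactor genes, 1 rose and 5 fell by day 2, with a median log2 fold change of -1.17, against -0.01 over all genes, and 1 rose and 4 fell by day 4. Idh2, a mitochondrial source of the Tet cosubstrate, was at 451, 467 and 405 CPM on day 0 and 131, 137 and 113 CPM on day 4 and fell (-1.80 ± 0.13, adjusted p = 1.1e-09). Hmces, a sensor of abasic sites, fell by day 2 (-2.05 ± 0.12, adjusted p = 1e-10). The 1 that rose, Cxxc4, a partner of Tet2, was at most 0.0599 CPM on day 0 and between 2.36 and 3.57 CPM on day 4. Of 8 genes of methyl donor supply, 3 rose and 2 fell by day 2 and none rose and 6 fell by day 4, Shmt2, the mitochondrial serine hydroxymethyltransferase, by the most (-1.29 ± 0.15, adjusted p = 8.4e-07). Lists of this size are descriptions, and the shares of all genes called in the same comparisons were 28.6% higher and 27.4% lower by day 2, and 29.8% and 30.0% by day 4.

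Markers of other cells were read in the same libraries, and some reached the level of the lower members. In TX1072, 5 genes of primitive endoderm summed to 4.04, 4.93 and 6.63 CPM on day 0 and 30.1, 34.7 and 34.5 CPM on day 4, with Dab2 the most abundant, none at 0 and 5 of 5 risen by day 4. Genes of trophoblast (4 in the list) summed to 77.0, 107 and 71.8 CPM on day 0, 36.3, 30.8 and 28.4 CPM on day 2 and 171, 127 and 115 CPM on day 4, with Tfap2c or Eomes the most abundant. Genes of feeder fibroblasts (4 in the list) summed to at most 31.9 CPM. Genes of the two-cell-like state (4 in the list) summed to at most 0.132 CPM on days 0 and 1, to 9.93, 7.35 and 11.8 CPM on day 3, the day of the second maximum of Dppa3, and to 1.89, 2.57 and 3.50 CPM on day 4, and in the single cells to 1.21 CPM on day 3. Their part in the course of the 9 genes was not tested.

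For each member, the gene with the most similar profile was taken by Pearson's r of log2(CPM + 1) over the 15 TX1072 libraries, among 9598 genes with a mean of at least 10 CPM. Tet2 was closest to Jam2, a junctional adhesion molecule, with r = 0.996, and 0.99 in the 30 deletion-line libraries that the choice did not use. Dnmt3l was closest to the retinoic acid receptor Rarg (0.98, and 0.98 in the deletion lines), Dnmt3a to the phospholipase Pla2g10 (0.99 and 0.96), and Dnmt3b to the phospholipase Plcg2 (0.98 and 0.97). Uhrf1 was closest to Gfpt2 (0.99 and 0.88), Dppa3 to Sbk1 (0.96 and 0.88) and Tet1 to Frrs1 (0.96 and 0.89). The likeness of Dnmt1 to Phb2 (0.94) and of Tet3 to Stk40 (0.91) was weaker in the deletion lines, at 0.52 and 0.32. The libraries share 5 days, so that any gene with a similar course over days reaches a high r.

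The single-cell data show how these levels were spread over cells. Of 400 capture sites per day, 277, 325, 341, 257 and 272 cells were retained on days 0 to 4, 1472 in all, with a median of 138565, 124651, 125591, 130377 and 171158 unique molecular identifiers (UMIs) per cell. Each day was 1 culture, so that no test between days was possible, and intervals cover counting error only. Dnmt3l was at 25.9 CPM (95% interval 24.4 to 27.6) of all UMIs on day 0, 1212 CPM (95% interval 1201 to 1222) on day 1 and 136 CPM (95% interval 133 to 139) on day 4. A Dnmt3l UMI was found in 36.8% of cells on day 0, in all cells on day 1, in 99.7% and 96.9% on days 2 and 3, and in 64.0% on day 4. Thinned to 40000 UMIs per cell, which all retained cells reached, the shares were 26.4% on day 0, 100.0% on day 1 and 50.0% on day 4. On day 1 the quartiles of the cells were 963 and 1454 CPM. The 10% of cells with the most Dnmt3l UMIs held 17.7% of them on day 1, whereas on day 4 they held 62.3%.

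Dnmt3a was at 38.2 CPM (95% interval 36.3 to 40.2) on day 0, 638 CPM (95% interval 629.9 to 645) on day 2 and 86.0 CPM (95% interval 83.3 to 88.7) on day 4. Its share of cells with a UMI was 62.1% on day 0 (45.5% thinned), 99.7% on day 2 (98.5%) and 76.5% on day 4 (61.8%). Dnmt3b was found in at least 95.7% of cells on each day, at 183 CPM (95% interval 179 to 187) on day 0 and 1442 CPM (95% interval 1431 to 1454) on day 2. All 3 de novo genes together had a UMI in 22.7% of cells on day 0 (95% exact binomial interval 17.9 to 28.1%), 98.2% on day 1, 99.1% on day 2, 85.6% on day 3 and 46.3% on day 4 (40.3 to 52.4%). These are shares of cells with a UMI, and a cell without one may still hold the RNA.

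The shares of cells with a UMI of Dppa3 and of Tet2 took different courses. Dppa3 was found in 93.9% of cells on day 0, 20.3% on day 1, 56.9% on day 2, 64.2% on day 3 and 32.4% on day 4, with levels of 138, 4.78, 50.9, 99.6 and 24.6 CPM. Under the authors' CPM formula, the levels were 140.0 CPM on day 0 and 145 CPM on day 3, so that the order of these days turned. Thinned, the shares were 85.6%, 9.54%, 43.1%, 49.8% and 19.9%. The second maximum was uneven over cells: on day 3, the quartiles were 0, 21.2 and 114 CPM, and the 10% of cells with the most UMIs held 55.2% of them, against 30.9% on day 0. Tet2 went from 98.2% of cells on day 0 over 81.5% on day 1 and 41.9% on day 2 to 14.0% on day 4, with 209.7 CPM on day 0 and 8.17 CPM on day 4, when 97.3% of its UMIs came from 10% of the cells. Tet1 stayed in 87.5% of cells or more on each day, and Tet3 was found in 20.0% (day 1) to 33.1% (day 2) of cells, at 9.22 to 13.5 CPM. Dnmt1 (309 CPM on day 0, 195 CPM on day 4) and Uhrf1 (288 and 98.4 CPM) were found in at least 91.2% of cells on each day.

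**Figure D3:**
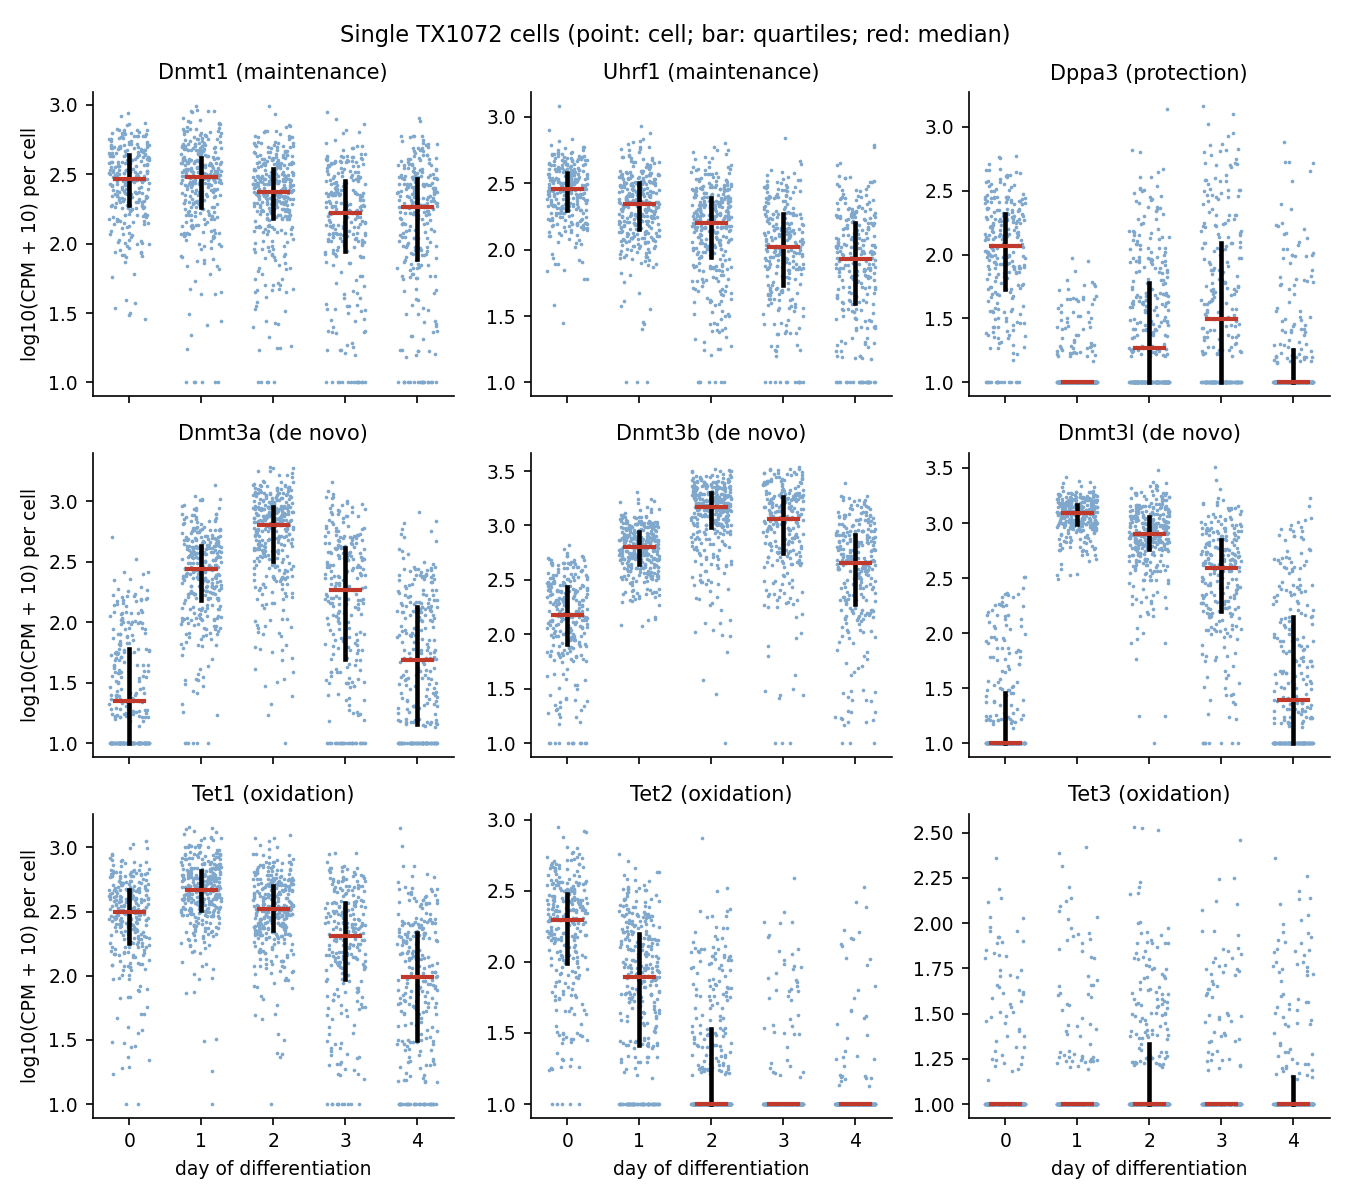
Level of the 9 genes in single TX1072 cells by day, as log10(CPM + 10); each point is 1 of the 1472 retained cells, black bars span the quartiles and red lines mark the medians, and points at 1.0 have no UMI. Dnmt3l shifts as a whole on day 1, when its quartiles are 963 and 1454 CPM, while Dppa3 on day 3 spreads from no UMI to above 100 CPM.

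On days 2 and 3, Dnmt3a and Dnmt3b went together over cells, and Dppa3 went the other way, which was weaker or absent on the remaining days. Spearman's rho of the levels of Dnmt3a and Dnmt3b was 0.60 over the 341 cells of day 2 and 0.58 over the 257 cells of day 3, with medians of 0.57 and 0.57 within the 10 columns of the chip. On days 0, 1 and 4 it was 0.04, 0.22 and 0.24. Dppa3 against Dnmt3b gave -0.35 on day 2 and -0.45 on day 3, and against Dnmt3a -0.32 and -0.30. On days 0, 1 and 4, Dppa3 gave 0.01, 0.08 and -0.19 against Dnmt3b, and -0.04, 0.17 and -0.06 against Dnmt3a. Dppa3 against Dnmt3l gave -0.17, -0.11, 0.01, 0.36 and 0.36 on days 0 to 4, so that the sign differed between the first and the last days. Dnmt3b against Dnmt3l gave 0.04, 0.10, -0.13, -0.32 and -0.05. These cells share 1 culture per day, and the rho of Dppa3 with the total UMIs of a cell was 0.05 on day 2 and -0.17 on day 3.

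**Figure D4:**
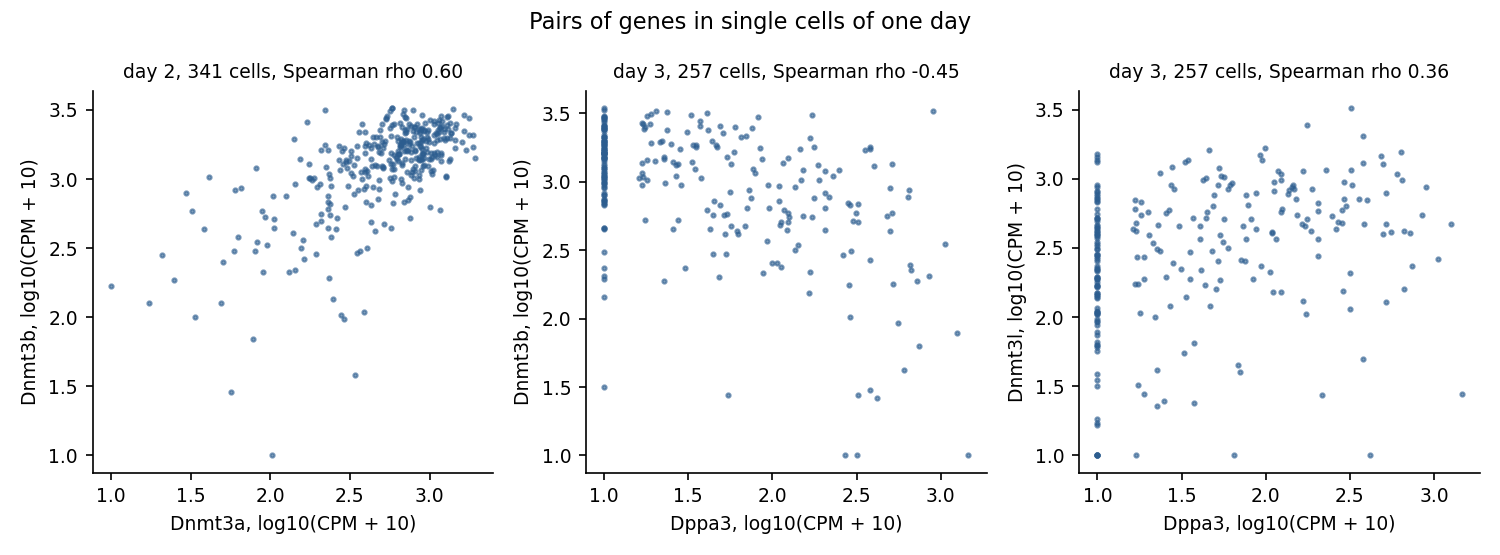
Levels of 2 genes in the single cells of a day, both axes as log10(CPM + 10), 1 point per cell: Dnmt3a and Dnmt3b on day 2 (341 cells, rho 0.60), Dppa3 and Dnmt3b on day 3 (257 cells, rho -0.45) and Dppa3 and Dnmt3l on day 3 (rho 0.36). The first cloud rises, the second falls, and cells with no Dppa3 UMI stand at 1.0 on the x axis.

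The share of UMIs from unspliced RNA, read from introns, was given for each cell as well. For Dnmt3a it was 25.4% (23.4 to 27.4%) on day 0, 7.68% (7.24 to 8.14%) on day 1, 5.50% (5.24 to 5.78%) on day 2 and 8.06% (7.25 to 8.93%) on day 4 (95% exact binomial intervals), while over all genes it was between 10.7 and 13.3%. Dnmt3a was thus above the share of all genes on day 0, where its level was lowest, and below it on the later days. For Tet2 it was 12.9% (12.2 to 13.6%) on day 0, 17.8% (16.7 to 18.9%) on day 1, 16.1% (14.1 to 18.1%) on day 2, 15.6% (12.4 to 19.2%) on day 3 and 28.3% (24.4 to 32.4%) on day 4. For Tet3 it was 11.2% (8.26 to 14.7%) on day 0 and 25.3% (22.0 to 28.8%) on day 4. Uhrf1 stood highest on day 1, at 14.3% (13.6 to 14.9%), against 8.03% (7.55 to 8.53%) on day 0, and the share over all genes was also highest on day 1 (13.3%, against 10.7% on day 0). Dnmt3l stayed between 0.935% and 1.45%, and Dnmt1 between 2.81% and 4.49%. Intron reads can also come from priming within introns or from overlapping transcripts, and their part was not tested.

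Reads that cover a variant between the strains show which allele the RNA came from. Over all autosomal genes, the B6 share of allele-specific counts was between 50.5 and 51.4% in the 45 libraries. Dppa3 shifted from Cast towards B6: in TX1072 its B6 share was 35.9, 35.2 and 38.9% on day 0 and 57.6, 57.5 and 60.4% on day 2, from 290 to 1431 allelic counts per library. All libraries of day 2 were above all of day 0. The same held in TXdXicB6, with 28.1, 30.7 and 27.6% on day 0 and 52.6, 56.4 and 47.4% on day 2, and in TXdXicCast, with 42.0, 34.6 and 34.5% and 63.0, 55.2 and 59.5%. On day 3, the second maximum of its RNA, the share was 57.5, 53.8 and 53.7% in TX1072, again above every library of day 0.

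Dnmt3b moved towards B6 as well, from 44.0, 42.4 and 43.1% on day 0 of TX1072 to 55.4, 54.7 and 56.1% on day 4, and from 45.0, 42.2 and 41.2% to 54.2, 53.7 and 55.0% in TXdXicB6. Tet1 moved the other way, from 56.9, 59.6 and 56.3% on day 0 to 44.6, 44.4 and 45.5% on day 2 of TX1072. It went from 58.7, 59.7 and 59.2% to 49.3, 48.8 and 48.2% in TXdXicB6 and from 57.9, 59.1 and 58.2% to 48.5, 47.2 and 47.9% in TXdXicCast. Neither gene had overlapping groups in these comparisons. On days 3 and 4 the mean share of Tet1 was 48.2% and 49.2% in TX1072, 48.5% and 50.8% in TXdXicB6, and 49.3% and 52.0% in TXdXicCast, so that the mean of day 4 was above that of day 2 in each line. Uhrf1 was at 45.0, 46.8 and 45.3% on day 0 and 51.8, 50.6 and 51.2% on day 1 of TX1072, without overlap, and between 47.4 and 51.5% on the later days. Dnmt3l, in spite of the largest rise of its RNA, was between 49.7 and 53.7% in all 15 TX1072 libraries, and Dnmt1 between 44.2 and 47.5%. Dnmt3a was between 35.1 and 38.3% on day 1 and between 44.1 and 46.0% on day 2 of TX1072, while Tet3 had only 70 to 239 allelic counts per TX1072 library. Its share was 57.5, 31.5 and 44.9% on day 0 and 57.0, 55.3 and 53.8% on day 4 of TX1072, with overlap. In TXdXicCast, with 247 to 1182 counts, it was 49.9, 51.4 and 53.2% and 54.3, 54.1 and 57.6%, without overlap, and in TXdXicB6, with 75 to 1298 counts, 46.7, 51.1 and 44.6% and 53.7, 48.7 and 49.0%, with overlap. A share set by 1 or few variants can also shift with the transcript isoform, which was not tested.

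**Figure D5:**
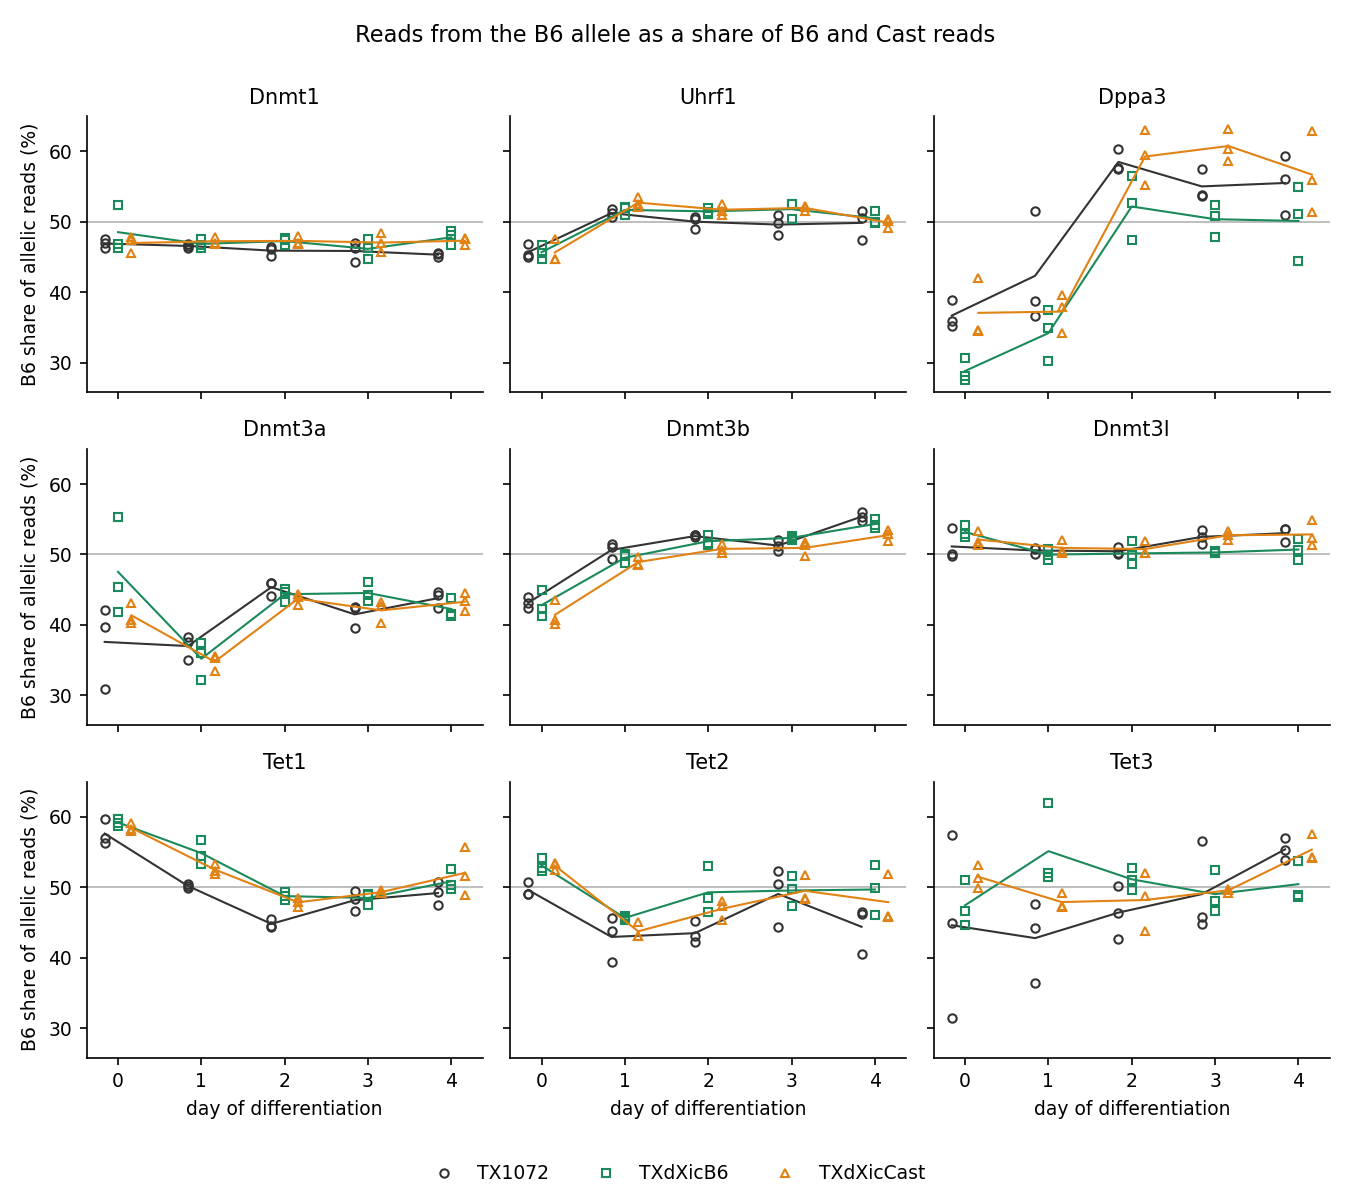
B6 reads as a share of B6 and Cast reads (%) of the 9 genes by day; each point is 1 bulk library, lines join the means of 3, and the grey line marks 50%. From day 0, Dppa3 and Dnmt3b move up in all 3 lines, and Tet1 moves down to day 2 or 3 and partly back, while Dnmt3l keeps nearly level and the Tet3 libraries of TX1072 spread widely.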

How the data were processed

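Per the labels, the deposited values are raw counts. The authors aligned bulk reads with STAR 2.5.2b to a mouse genome masked at strain variants (SNPsplit) and counted unique exonic reads with featureCounts, and made the single-cell UMI, spliced and unspliced counts with a Drop-seq pipeline. The strand setting is not given in the sources used here. Libraries were tested with edgeR 4.0.16 (R 4.3.3; quasi-likelihood, 2-sided, TMM factors and library sizes from autosomal genes, filterByExpr, Benjamini-Hochberg over all genes), TX1072 and the deletion lines in separate fits. DESeq2 1.42.0 was an alternative. On simulated TX1072 counts (day 1 against day 0, 18220 genes), 83% of the genes changed by a log2 of 1 and 96% of those changed by 2 were recovered, with 4.28% false calls. Only 100 genes were changed by each size, drawn from genes above a floor of counts, and all others were flat. In the data 47.0% of genes were called at this step, so that these rates need not hold there. RPKM uses GENCODE vM21 exon unions. Single cells were those on the study's own list of retained cells. The 9 genes and all gene lists were chosen with earlier results of these data known. For each member, the 3 genes with the highest r were taken, and the first is named. From the lists of partners, the genes described were among the called genes with the largest rise or fall of their list. Not all such genes are described. Differentiation was induced on a different day for each replicate, so that same-numbered libraries share a course. Over genes, the median correlation of their deviations from the group mean was 0.126 in TX1072 (17 of 30 pairs over 0.1) against -0.0676 for different numbers, and 0.185 against -0.11 within a deletion line. Across the 2 deletion lines it was 0.0982 (37 of 75 pairs over 0.1) against -0.0581 (36 of 150). The fit with the replicate as block was an alternative. It blocks within each line, with replicate 1 as reference. No fit paired the 2 deletion lines by number.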

Additional observations from a re-analysis of the deposited data

Results flagged for a closer look

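Over the columns of the chip, each with 10 values per day, 7 of 45 groups had an end value set apart from the others, where chance gives about 1 in 20. On day 1, for which a pair of sequencing runs was taken as 1 value per column, Dnmt3a was at 429 CPM in 1 column of 34 cells, the next at 326 and the lowest at 281. Dnmt1 was at 425 CPM in another column of 32 cells, the next at 331, and Uhrf1 at 294 CPM in a column of 30 cells, the next at 250.4. Dppa3 on day 0 was at 73.2 CPM in 1 column of 25 cells, where the next was at 126 and the highest at 174. Dppa3 on day 3 was at 219.8 CPM in 1 column of 29 cells, the next at 133. Tet2 on day 2 was at 56.5 CPM in 1 column of 31 cells, the next at 32.6, and Tet3 on day 4 was at 19.3 CPM in 1 column of 25 cells, the next at 12.0. Over all columns of a day, the highest count of a single cell was 163 UMIs for Dppa3 on day 3 and 89 for Tet2 on day 2. The columns that held these cells are not given here. No cause was tested. Directions were also compared between lines, where the libraries of 2 days did not overlap. Among 54 combinations of a gene and a comparison of days, none had opposite directions in 2 lines.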

How the results depend on the processing

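Of 126 called changes of the 9 genes, 16 were lost under at least 1 alternative, and none reversed in 1537 refitted values. DESeq2 and DESeq2's size factors lost 2 each, TMM factors from all genes 3, no filter on low counts 4, and leaving out 1 library 48 of 756. Dnmt1 from day 2 to day 3 was lost in both deletion lines under DESeq2 (adjusted p = 0.069 in TXdXicB6 and 0.055 in TXdXicCast). In both lines it was also lost with DESeq2's size factors, with TMM factors from all genes and without the filter on low counts. Most fits without 1 library of these days lost it too. For the difference between the deletion lines on day 0, leaving out a library gave 2 to 7 called members, and on day 4 0 to 1. Without the filter, day 4 gave 2 called members. Without days 3 and 4 of TXdXicCast replicate 3, an alternative chosen after seeing the data, day 4 gave 0. For the line against the change from day 1 to day 4, DESeq2 gave 1, no filter gave 1, and leaving out a library 0 to 1. Over all genes, the line differences on days 1, 2 and 3 called 78, 75 and 257 genes by edgeR, 140, 135 and 495 by DESeq2 and 198, 200 and 579 without the filter, and the line by day test 165, 353 and 418. Without these libraries, days 3 and 4 called 65 and 443 genes instead of 257 and 1190, and the line by day test 66.

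With the replicate as block, the pairing moved the number of called members in TX1072 from 6 to 7 from day 1 to day 2 (Dnmt3l), from 6 to 8 from day 2 to day 3 (Dnmt1 and Tet3), from 4 to 5 from day 3 to day 4 (Tet1) and from 7 to 8 from day 0 to day 4 (Dnmt1), and kept 5 and 7 at the others. In TXdXicB6, Tet3 was gained from day 3 to day 4 and from day 0 to day 2. Between the lines, this fit compares only the levels fitted for replicate 1 of each line, so that it is not a paired form of the main test. In it, Dnmt3b and Tet1 were not called on day 0 and Tet3 was. Over all genes it called 103 genes on day 3 and 765 on day 4, where the main fit called 257 and 1190. The line by day test rests on changes within each line, and the block moved it from 165 to 490 calls. In the single cells, correcting for UMIs that 2 molecules share (1024 are possible) moved 22 of 45 levels beyond their counting interval, all capture sites 12, and the authors' CPM formula, which divides by a size factor that follows the total UMIs (r = 0.993 over 1472 cells), 38, by a median of 1.05, 1.13, 1.20, 1.21 and 0.89 times on days 0 to 4. The level of Tet2 on day 4 rests on 371 UMIs over 272 cells.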

Other observations

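Cells were also read by Xist, the RNA that coats the X chromosome to be silenced: those with more than 5 Xist UMIs against those with none, on the same day. Dnmt3b was at 1506 CPM (1494 to 1519) in the 294 cells with Xist and at 968 CPM (926 to 1012) in the 17 without on day 2, at 1434 CPM (1418 to 1450.3) against 814 CPM (789 to 839.6) on day 3 (164 and 42 cells) and at 656 CPM (646 to 665) against 309.8 CPM (297 to 323) on day 4 (161 and 46 cells). Dppa3 stood the other way on day 3, at 79.7 CPM (75.9 to 83.6) with Xist and 172 CPM (160.3 to 184) without, and Tet2 on day 4, at 3.33 CPM (2.68 to 4.08) with Xist and 15.6 CPM (12.8 to 18.7) without. On day 3, Tet2 was at 13.9 CPM (12.4 to 15.6) with Xist and 11.6 CPM (8.76 to 15.0) without, and 97.3% of its UMIs on day 4 came from 10% of the cells. On days 1 and 2, Tet2 was at 96.0 and 24.0 CPM with Xist and at 89.4 and 76.8 CPM without. On days 1, 2 and 4, Dppa3 was at 5.53, 45.5 and 18.7 CPM with Xist and at 5.27, 74.4 and 23.3 CPM without. Dnmt3l on day 3 was at 421 CPM (412 to 429.9) with Xist and 579 CPM (558 to 601) without, while on day 1 it was at 1236 CPM (1222 to 1250.0) and 1104 CPM (1081 to 1126). Uhrf1 was at 165 CPM (161 to 169) and 163 CPM (146 to 182) on day 2, and at 116 CPM (112 to 121) and 151 CPM (140.0 to 162) on day 3. Each day was 1 culture and the intervals cover counting error only, so that these are values with no test, and the state of differentiation of the cells without Xist was not tested.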
